A study of Arabidopsis thaliana with 15 samples.

Results

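Seedlings of Arabidopsis thaliana labelled wrky-qm_15_hz were compared with seedlings labelled wrky-qm, with 3 libraries in each group. Per the labels, wrky-qm is homozygous mutant for WRKY7, WRKY11, WRKY17, WRKY21 and WRKY39. The labels give wrky-qm_15_hz the same 5 homozygous mutations and, in addition, a mutation of WRKY15 that is heterozygous, so both groups share the quintuple background and differ by 1 mutated copy of WRKY15. Sets of wild-type seedlings labelled Col-0_1 and Col-0_2, 3 libraries each, gave the background, and a double mutant of OBE1 and OBE2 labelled obe1-2, also 3 libraries, entered the fit only to estimate the spread. All 15 libraries came from the Col-0 ecotype, from whole seedlings 11 days old on Murashige and Skoog plates at 22 °C with 16 h of light and 8 h of dark. The insertion alleles, the way heterozygous seedlings were picked, and whether the replicates were grown separately are not given in the sources used here. The error behind each p-value is therefore that among libraries, and it could be technical only. The genes described are those with a mean of at least 1 normalised read in wrky-qm or in wrky-qm_15_hz, 24257 of the 32548 in the deposited table. Of the others, 6167 were listed at 0 in every library and 2124 stayed below that mean.

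WRKY proteins are plant transcription factors that bind the W-box, a short promoter element common in genes of defence and stress. Members of group IId, to which all 6 mutated genes belong, carry a calmodulin-binding stretch, and WRKY11 and WRKY17 are known as negative regulators of basal resistance. The series title describes WRKY and PHD-finger proteins as partners in the repression of stress genes. Abscisic acid is the hormone of drought and salt responses, while salicylic acid and jasmonate direct largely opposing branches of defence in the leaf.

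Library totals lay between 44049333 and 49934976 normalised reads. They were 45887436 to 46402162 in wrky-qm and 49382960 to 49934976 in wrky-qm_15_hz. Median-of-ratios size factors were 1.04 to 1.044 in wrky-qm and 1 to 1.002 in wrky-qm_15_hz, and the main fit did not rescale libraries. The median coefficient of variation between replicates, in genes with a mean of 1000 or more, was 3.77% in wrky-qm and 4.76% in wrky-qm_15_hz. The 10 most abundant genes held 6.56 to 6.63% of the total in wrky-qm and 5 to 5.11% in wrky-qm_15_hz. The deposited table stores zeros in at least 2 ways. In the Col-0_1 libraries 8177 genes and in the wrky-qm libraries 7949 genes carry tiny positive values in place of 0. In the Col-0_2, obe1-2 and wrky-qm_15_hz libraries none do, so the way the values were made splits along the same line as the comparison. Genes at 0 numbered 9166, 7949 and 9241 in the wrky-qm libraries and 8431 in every wrky-qm_15_hz library. In wrky-qm_15_hz low genes can carry fractions such as 0.0326, so a listed 0 may not mean the same in both mutants. The labels do not say which wild-type set was grown or sequenced with which mutant. A difference between sets and a difference between genotypes cannot be told apart in the mutants alone, and the median of Col-0_2 minus Col-0_1 is therefore given beside each list, with wild-type means beside the genes shown by library. Green-tissue markers were high in both mutants, with LHCB2.1 at 163869 normalised reads in wrky-qm and 52740.5 in wrky-qm_15_hz, and the root marker CASP1 was present at 1141 and 331.

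Differences are given as log2(value + 1) in wrky-qm_15_hz minus wrky-qm, ± SE, and a rise or fall means an adjusted p under 0.05 in limma's moderated test with Benjamini-Hochberg adjustment over all 24257 genes. In that direct comparison 7400 genes (30.5%) rose and 8749 (36.1%) fell, 66.6% in all. The libraries of both mutants did not overlap in 7842 genes that were higher (32.3%) and 9067 that were lower (37.4%) in wrky-qm_15_hz. Col-0_2 minus Col-0_1, measured in the same genes, gave 3437 higher (14.2%) and 2405 lower (9.91%), 24.1% in all. The difference between mutants minus that between wild-type sets, called the set-adjusted difference below, was higher in 5777 genes (23.8%) and lower in 6842 (28.2%), 52.0% in all. A stricter call, used for every gene said below to hold after adjustment, asks for the same direction and a p under the threshold in the direct and in the set-adjusted comparison at once. It took 5245 genes that rose (21.6%) and 6111 that fell (25.2%), 46.8% in all. Of these, 2060 rose (8.49%) and 3234 fell (13.3%) by at least 2-fold. The counts given for each gene list below are to be read against the shares among all genes. Those shares are 30.5% rises and 36.1% falls directly, and 21.6% and 25.2% after adjustment. The median absolute difference was 0.58 between the mutants and 0.19 between the wild-type sets, and the median difference was -0.087 and 0.000. Genes called in both comparisons made up 44.8 to 48.0% of the genes tested on each of the 5 nuclear chromosomes.

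**Figure D1:**
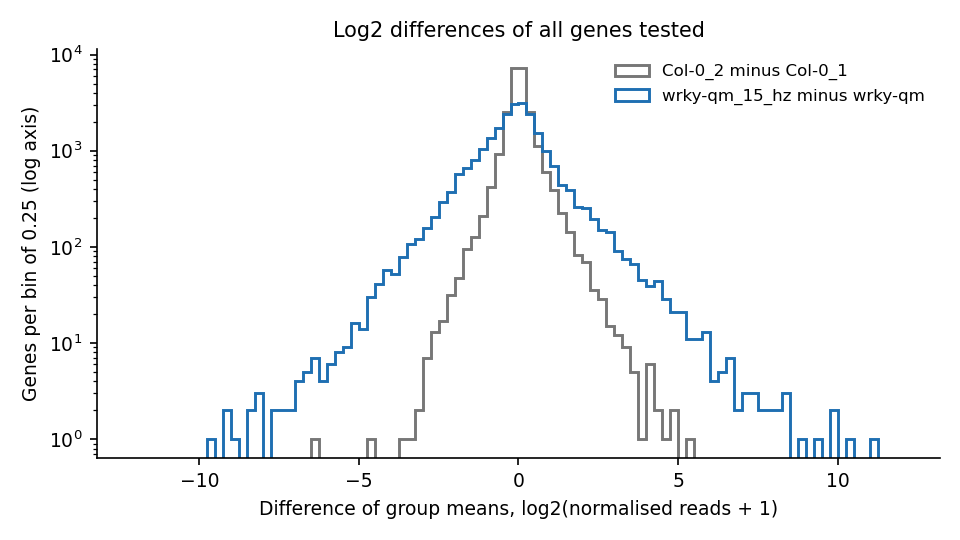
Number of genes (log axis) by log2 difference of group means, for wrky-qm_15_hz minus wrky-qm (blue) and for Col-0_2 minus Col-0_1 (grey), over the 24257 genes tested. The mutants differed by at least 2-fold in 7690 genes and the wild-type sets in 1578.

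WRKY15 had 2977, 3211 and 3199 normalised reads in the 3 wrky-qm libraries and 2622, 2577 and 2713 in wrky-qm_15_hz. The groups did not overlap, and WRKY15 fell by 0.25 ± 0.067 on the log2 scale (adjusted p = 0.00277, limma), with a set-adjusted difference of -0.59 ± 0.094. The wild-type means were 795 and 1006, so the transcript was above both wild-type sets in both mutants. Where each mutation lies relative to the counted reads was not stated in the labels, so these levels do not check the genotypes.

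The 5 genes mutated in both groups differed between them as well. WRKY11 had 2678, 2864 and 3049.7 normalised reads in wrky-qm and 6513, 6735 and 5896 in wrky-qm_15_hz. This was a rise of 1.16 ± 0.063 (adjusted p = 4.95e-13), and both mutants were above the wild-type means of 1716 and 2204. WRKY17, its close homologue, had 162, 189.9 and 199 in wrky-qm and 407, 357 and 469.9 in wrky-qm_15_hz. It also rose by 1.16 on the log2 scale, and stayed below the wild-type means of 1028 and 849 in both mutants. WRKY21 rose from 626 ± 64.5 (SD, n = 3) to 887 ± 81.4 (0.50 ± 0.075), just under its wild-type means of 966 and 947. WRKY7 fell from 1844 ± 81 to 1411 ± 32.1 (-0.38 ± 0.056) and WRKY39 from 999.5 ± 36.7 to 820.3 ± 49.8 (-0.29 ± 0.064). All 5 calls held after adjustment. WRKY74, the remaining member of group IId and not mutated, was at 37.6 ± 16.3 and 35.8 ± 6.67, with overlapping libraries and a difference of -0.01 ± 0.45. Of the PHD-finger genes, OBE2 rose from 5554 ± 28.4 to 6970.0 ± 333 (0.33 ± 0.044), while OBE1, at 4622 ± 219 and 3702 ± 216, differed by -0.32 ± 0.16 and did not pass (adjusted p = 0.0846), although its libraries did not overlap. The same OBE1 difference passed in the fit to the 6 libraries of both mutants (adjusted p = 1.48e-04) and in the fit to 12 libraries without obe1-2 (adjusted p = 7.18e-05).

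**Figure D2:**
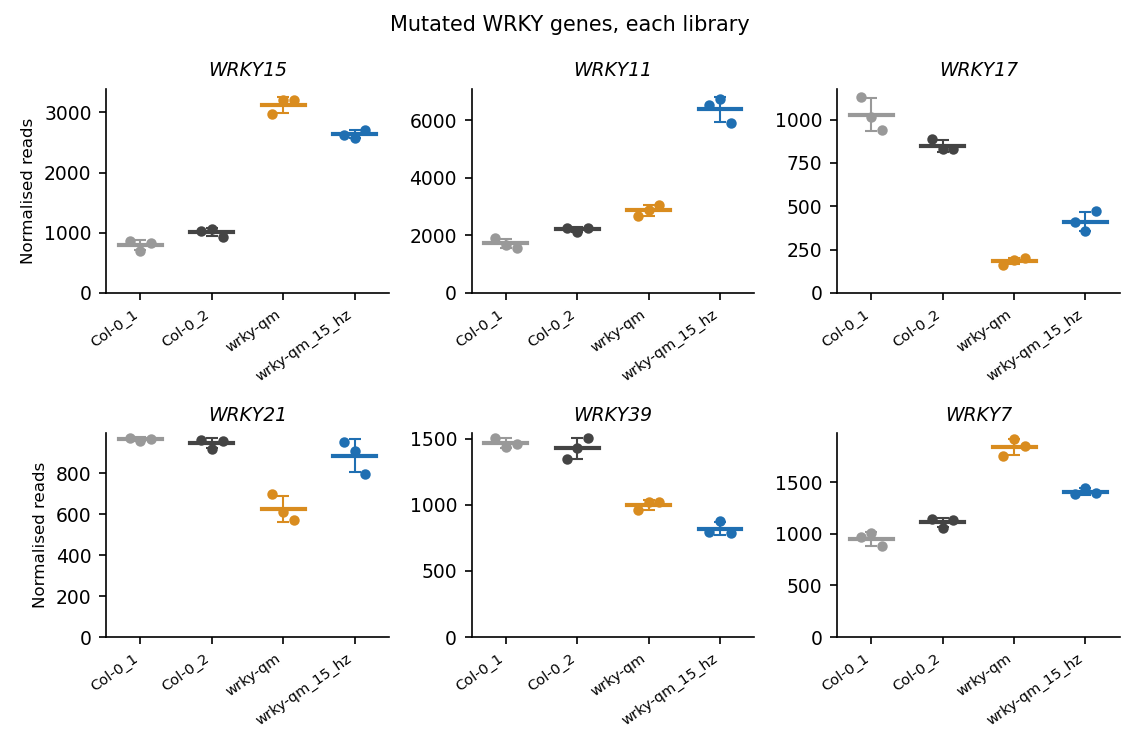
Normalised reads of the 6 mutated WRKY genes in each library of Col-0_1, Col-0_2, wrky-qm and wrky-qm_15_hz, with group means and SD as bars and axes from 0. WRKY15 lies above both wild-type sets in both mutants, WRKY17 below them, and WRKY11 is highest in wrky-qm_15_hz.

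Most abscisic acid and drought genes fell, and NCED3, HAI2 and RD29B, among others, were above wild type in wrky-qm and below it in wrky-qm_15_hz. Of 29 members tested, 25 fell and 3 rose, against 36.1% and 30.5% of all genes, and 25 falls and 2 rises held after adjustment. The list's median difference was -3.23, with 0.06 between the wild-type sets. NCED3, the rate-limiting enzyme of abscisic acid synthesis, had 13541, 14010.2 and 13819 normalised reads in wrky-qm and 291, 287 and 302 in wrky-qm_15_hz. Every wrky-qm library was above the wild-type means of 1065 and 902, and every wrky-qm_15_hz library was below them, a fall of 5.55 ± 0.069 on the log2 scale (adjusted p = 8.64e-24). ABA1, the enzyme that makes the epoxidised precursors further upstream, fell from 20533 to 4815, and ABA2 and AAO3, which act after NCED3, did not follow. ABA2 was at 391 and 403 and did not pass the test, and AAO3 rose from 2284 to 3678.

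The phosphatases that shut off abscisic acid signalling, and are induced by it, fell with NCED3. HAI2 had 5196, 4785 and 4686 normalised reads in wrky-qm and 19.4, 0.227 and 8.96 in wrky-qm_15_hz, against wild-type means of 493 and 283. It was the deepest fall among genes named by the rule on size, -9.60 ± 0.62. HAI1 went from 15944 to 181, PP2CA from 25382 to 1525, ABI2 from 4988 to 336 and ABI1 from 19075 to 4045, all calls that held after adjustment. The transcription factors that carry the signal, ABF2, ABF3 and ABF4, fell by 2.39, 2.95 and 1.24 on the log2 scale.

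The protective end of the pathway fell too. RD29B, a desiccation gene controlled almost wholly by abscisic acid, had 28868, 27536 and 27688 normalised reads in wrky-qm and 139.7, 133 and 123 in wrky-qm_15_hz. With wild-type means of 1005 and 1138, wrky-qm was above and wrky-qm_15_hz below both, and the difference was -7.72 ± 0.16 (adjusted p = 2.61e-20). P5CS1, which makes the osmoprotectant proline, went from 107046 ± 1423 to 5919 ± 24.5, and RD29A from 73531 ± 982 to 3796 ± 71.2. Both also differed between wild-type sets, from 34509 (Col-0_1) to 18663 (Col-0_2) for P5CS1, and from 20445 to 35667 for RD29A. LEA7, a late embryogenesis protein, fell from 7377 ± 451 to 64.7 ± 4.09, which is within the wild-type range of 61.9 to 84.5. The ubiquitin ligase PUB19, a regulator of drought responses, fell from 18477 ± 451 to 60.2 ± 10.3, and the F-box gene EDL3 from 2542 ± 63.2 to 27 ± 9.22. The 3 rises were LTP3, a lipid transfer protein (3567 to 11399), AAO3, and CYP707A1, a catabolic enzyme (711 to 976), of which the last did not hold after adjustment.

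The CBF cold-response genes, whose products switch on many of the same protective genes, gave 13 falls and 2 rises among 15 members, with all 13 falls holding after adjustment. The median was -3.01 between mutants and 0.32 between wild-type sets, where 9 members were higher in Col-0_2. CBF3 had 2125, 2098 and 2084 normalised reads in wrky-qm and 10.6, 44.6 and 22.5 in wrky-qm_15_hz, against wild-type means of 700.0 and 780.1. CBF1 fell from 1034 ± 24.9 to 74.9 ± 17.4, and CBF2 from 1725 ± 58.7 to 216 ± 44.7. Between wild-type sets CBF1 and CBF2 were higher in Col-0_2 (255 against 54.1 and 613 against 167), so their set-adjusted falls were deeper, -6.01 and -4.89. COR15A, a chloroplast membrane protectant, fell from 32208 ± 485 to 2057 ± 209.5. The rises, ZAT10 and ZAT12, encode zinc-finger stress factors that answer many stimuli; ZAT10 went from 1815 to 2679 and ZAT12 from 295 to 817, and neither held after adjustment. RD29A is counted here too, under its name COR78, and XERO2 under the name LTI30. Among heat shock factors, HSFA6A and HSFA6B, which are induced by abscisic acid and drought, fell from 1119 ± 85.7 to 1.53 ± 1.29 and from 743 ± 25.2 to 7.39 ± 8.82.

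The jasmonate pathway also fell in most members, 22 of 25, with 3 rises, and 20 falls and 1 rise held after adjustment. The median difference was -1.28 and that between the wild-type sets 0.07. OPR3, the peroxisomal reductase of jasmonate synthesis, had 9992, 10259 and 10072 normalised reads in wrky-qm and 2857, 2754 and 2858 in wrky-qm_15_hz. Its wild-type means were 1963 and 2058, so wrky-qm_15_hz remained somewhat above wild type, and the fall was 1.84 ± 0.044 on the log2 scale. JAZ6, a repressor of the pathway that is itself induced by jasmonate, fell from 5237 ± 44.7 to 1930.5 ± 98.7, and all 10 JAZ genes of the list fell. LOX2, the chloroplast lipoxygenase that starts the pathway, went the other way, from 27815 ± 341 to 108372 ± 6995, above wild-type means of 37569.7 and 34253. VSP1 and VSP2, storage proteins used as readouts of the MYC branch, fell in the direct comparison only, VSP2 from 8612 to 4625 beside wild-type means of 9755 and 4565.

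The branch in which jasmonate acts with ethylene rose in the direct comparison, but little of its median rise remained after adjustment. All 11 members rose directly and none fell, and 6 rises held after adjustment. The median difference was 1.55, and that between the wild-type sets was almost as large. Of the 11 members, 10 were also higher in Col-0_2 than in Col-0_1, and the median set-adjusted difference was 0.23. PDF1.2, a defensin, had 1.91, 0.00335 and 0 normalised reads in wrky-qm and 422, 472 and 601 in wrky-qm_15_hz. Its wild-type means of 43.9 and 802 bracket the wrky-qm_15_hz level. PDF1.3 had the same pattern, at 0.652 and 1446 in the mutants and 142 and 1616 in the wild-type sets. HEL, a chitin-binding defence protein also called PR4, rose from 6199 ± 139.9 to 119309 ± 5984, far above wild-type means of 5349.6 and 13283.

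**Figure D3:**
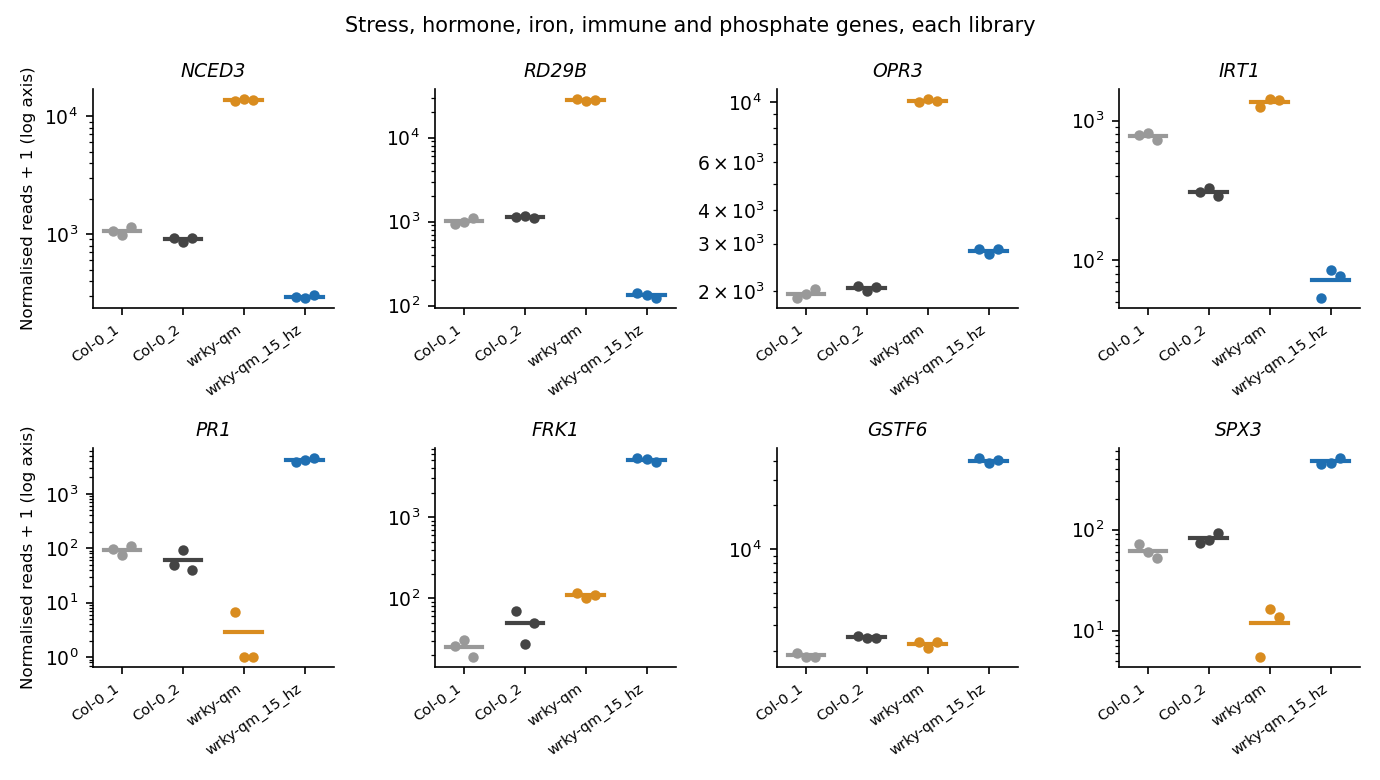
Normalised reads plus 1 (log axes) of 8 genes in each library of Col-0_1, Col-0_2, wrky-qm and wrky-qm_15_hz, with group means as bars. NCED3, RD29B and IRT1 lie above both wild-type sets in wrky-qm and below them in wrky-qm_15_hz, and PR1 and SPX3 the reverse. OPR3 stays above wild type in both mutants, FRK1 is highest in wrky-qm_15_hz, and GSTF6 is near wild type in wrky-qm.

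Salicylic acid genes rose in 19 of 24 members and fell in 2, against 30.5% and 36.1% of all genes. After adjustment 13 rises and 2 falls held, against 21.6% and 25.2%. The median difference was 1.46, with 0.34 between wild-type sets and 12 members higher in Col-0_2, and the set-adjusted median was 0.32. PR1, the classical marker of salicylic acid defence, had 5.74, 0.01 and 0 normalised reads in wrky-qm and 3906, 4222 and 4502 in wrky-qm_15_hz. Wild type lay between the mutants, at 93.1 ± 16.3 and 59.9 ± 27.7, and the difference of 11.12 ± 0.45 was the largest rise among the named genes (adjusted p = 3.58e-15). PR2, a glucanase, rose from 29.2 ± 5.46 to 959.9 ± 82.9, also from below to above its wild-type means of 365 and 112. Enzymes that complete or modify salicylic acid were among the rises. PBS3, which conjugates the isochorismate intermediate, had 265, 267 and 243 in wrky-qm and 1344, 1506 and 1361 in wrky-qm_15_hz. UGT74F2, a salicylic acid glucosyltransferase, rose from 1367 ± 23.6 to 8506 ± 171, whereas ICS1, isochorismate synthase, was at 912 and 1075, a rise of 0.23 that did not hold after adjustment. The receptors NPR1 and NPR3 were at 2001 and 2355 in wrky-qm and 2105 and 2640.1 in wrky-qm_15_hz. The 2 falls were EDS1, a hub of immune signalling, by 0.40 on the log2 scale, and DMR6, a salicylic acid hydroxylase, by 0.72.

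Genes of pattern-triggered immunity, the response to microbial molecules, rose in 20 of 25 members and fell in 2, and 13 rises and 2 falls held after adjustment. The medians were 0.72 between mutants and 0.40 between wild-type sets, where 16 members were higher in Col-0_2 and none lower by limma's test. FRK1, a receptor kinase used as a marker of this response, had 116, 101 and 109 normalised reads in wrky-qm and 5321, 5179 and 4769 in wrky-qm_15_hz. Its wild-type means were 24.2 and 48.5, and its rise of 5.54 ± 0.22 held after adjustment. CYP81F2, an enzyme of indole glucosinolate defence, rose from 581 ± 39.1 to 5010.4 ± 317, and WRKY29 from 791 ± 92.6 to 3794 ± 41. The receptors FLS2 and EFR, which bind flagellin and elongation factor Tu, rose from 1236 to 3889 and from 370.3 to 1680.3. The falls were PEPR1, the receptor of the plant's own danger peptides (5202 ± 91.3 to 1319 ± 70.6), and LYK5, a chitin receptor (1319 to 492). The kinase MPK3 was already high in wrky-qm, with 8096 normalised reads beside 8044 in wrky-qm_15_hz and 2671 and 4703 in the wild-type sets, and its difference did not pass.

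Camalexin, the main phytoalexin of Arabidopsis, and other indole defence compounds share their first enzymes. Of 15 members 12 rose and 2 fell, and 10 rises and both falls held after adjustment, with medians of 1.51 between mutants and 0.25 between wild-type sets. GSTF6, a glutathione transferase of camalexin synthesis, had 2308, 2107 and 2304 normalised reads in wrky-qm and 42067, 38847 and 40574 in wrky-qm_15_hz. Wild type was at 1868 and 2481, so wrky-qm was at the wild-type level and wrky-qm_15_hz far above it, a rise of 4.18 ± 0.054 (adjusted p = 1.59e-23). CYP71A12, which acts on indole acetaldoxime, rose from 93.4 ± 13.9 to 4614 ± 169, and CYP82C2, which makes a cyanogenic indole compound, from 1.31 ± 1.13 to 2050.3 ± 39.6. The falls were CYP79B3 (3832 to 984) and MYB34 (3283 to 802), the latter a regulator of indole glucosinolates, while CYP79B2, which catalyses the same step as CYP79B3, rose from 3150.0 to 8944. The aliphatic glucosinolates, made from methionine, fell: 11 of 12 members fell and 1 rose, all holding after adjustment. MYB29, a regulator of that branch, had 1885, 1729 and 1837 in wrky-qm and 104, 97.8 and 105 in wrky-qm_15_hz. CYP79F1, the entry enzyme, fell from 8325 ± 252 to 848 ± 84.4, and the exception, MAM3, a chain-elongation enzyme, rose from 1174 to 2180.5. The wild-type sets also differed in this list, with 10 members lower in Col-0_2 and a median of -0.38 beside -1.76.

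Cysteine-rich receptor-like kinases (CRK), many of them induced by salicylic acid or pathogens, rose in 30 of 40 members tested and fell in 2, and 28 rises and 2 falls held after adjustment. The family median was 1.61 and that between wild-type sets 0.32. CRK22 had 1629.7, 1653 and 1635 normalised reads in wrky-qm and 8773, 8440.4 and 8230.2 in wrky-qm_15_hz, with 1474 and 1273 in wild type. CRK10 ran opposite, from 9513 ± 64.4 to 2579 ± 28.8, and stayed above its wild-type means of 1254 and 1386. CRK42 was the other member that fell, from 979.8 to 368. CRK7 was listed at 0 in all wrky-qm libraries and had 73.3, 77.7 and 82.4 in wrky-qm_15_hz. The family lies partly in a tandem array of similar genes, and how reads shared between copies were counted is not given in the sources used here.

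In the WRKY family as a whole 38 of 67 members rose and 16 fell, against 30.5% and 36.1% of all genes, and 26 and 13 held after adjustment. The family median was 0.50 between mutants and 0.22 between wild-type sets, with 24 members higher in Col-0_2, and the set-adjusted median was 0.14. WRKY61 rose from 195 to 1096 and WRKY65 from 1270.2 to 3709. WRKY62, a salicylic acid-induced member, rose from 3.89 to 183, and WRKY45 from 40.3 to 1030.1. The group IIa genes were split. WRKY60 rose from 248 to 1157, WRKY18 was at 1836 and 1972 and did not pass, and WRKY40 fell from 1183 to 834. WRKY40 differed between wild-type sets, 40.2 against 281, and both mutants were far above either set. In the senescence list 8 of 12 members rose and 3 fell, with 6 rises and 3 falls after adjustment, against 21.6% and 25.2% of all genes. Of the 12 members 7 were also higher in Col-0_2, and the median was 1.05 directly, 0.42 between wild-type sets and 0.29 after adjustment. SAG13, a marker of cell death and senescence, had 9.4, 6.14 and 5.77 normalised reads in wrky-qm and 2972, 2872 and 2731 in wrky-qm_15_hz, with wild type between them at 67.8 and 97.2. SAG29 fell from 2847 to 275, the NAC factor NAP from 753 to 155 and ANAC019 from 2146 to 531. ORE1, another NAC factor, rose from 185 to 1897.

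Phosphate-starvation genes rose in 15 of 18 members and fell in 2, and all of these calls held after adjustment, with a median of 2.33 beside 0.21 between wild-type sets. PHT1;4, a high-affinity phosphate transporter, had 1380.0, 1376 and 1329 normalised reads in wrky-qm and 10737, 10837 and 10786 in wrky-qm_15_hz. Wild type was at 1328 ± 149 and 1339.6 ± 22.7, so wrky-qm was at the wild-type level, and the rise was 2.98 ± 0.061 (adjusted p = 2.55e-20). SPX3, a phosphate sensor induced by starvation, had 4.48, 15.3 and 12.6 in wrky-qm and 446, 459 and 507 in wrky-qm_15_hz, on either side of its wild-type means of 60.7 and 80.7. SPX1 rose from 858 ± 37 to 6287 ± 279.8, the pyrophosphatase PS2 from 434 ± 65.5 to 3559.8 ± 69, and the non-coding RNA IPS1 from 94 ± 8.81 to 1951 ± 205. The falls were PHO1;H1, a phosphate exporter (787 to 576), and PHR1, the master regulator of the response (2709.6 to 2112). Lipid-remodelling enzymes that spare phosphate rose as well, MGD3 from 79.4 to 1660.3 and SQD2 from 3905 to 6517.

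Iron-deficiency genes fell in 12 of 14 members and rose in 1, and 10 falls and no rise held after adjustment. The median was -1.63, with -0.32 between wild-type sets and 8 members lower in Col-0_2. IRT1, the iron transporter of the root epidermis, had 1241, 1427 and 1411 normalised reads in wrky-qm and 52.6, 83.9 and 75.7 in wrky-qm_15_hz, and its wild-type means were 776 and 306. BHLH039, an activator of IRT1, fell from 933 ± 93.2 to 172 ± 17.9, above its wild-type means of 93.7 and 97.5 in both mutants. CYP82C4, which makes the iron-mobilising phenolic sideretin, fell from 866 ± 27 to 7.57 ± 2.21, and NAS2, which makes the iron chelator nicotianamine, from 284 ± 25.8 to 1.49 ± 1.23. FRO3 was the 1 rise, from 5658 to 6278, and did not hold after adjustment.

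Of the nitrate genes, 6 of 10 rose and 2 fell, against 30.5% and 36.1% of all genes. After adjustment 6 rises and 1 fall held, against 21.6% and 25.2%. The list's median was 0.62, beside -0.00 between wild-type sets. NIA2, the main nitrate reductase, had 48096, 46724 and 48146 normalised reads in wrky-qm and 171219, 176759 and 164201 in wrky-qm_15_hz, with wild type at 42748 and 42029.8. NRT1.5, which loads nitrate into the xylem, fell from 2126 ± 39.2 to 608 ± 58.2, and both mutants were far below its wild-type means of 8537 and 12102. NRT2.1, a high-affinity transporter, was at 2264 ± 59.1 and 2312 ± 108 and did not pass. Lignin and phenylpropanoid enzymes rose in 10 of 14 members and fell in 3, 10 and 2 after adjustment, with medians of 0.93 and -0.08. C4H, the second enzyme of the pathway, had 9438, 9706 and 9825 in wrky-qm and 42524, 42038 and 42871 in wrky-qm_15_hz, with wild type at 10196 and 10844. F5H1 and COMT1, which make syringyl lignin units, rose from 5395 to 23211 and from 8606 to 34809.8. The falls were PAL4, 4CL3 and PRR1, a pinoresinol reductase, and that of 4CL3 did not hold after adjustment.

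Hypoxia-responsive genes rose in 9 of 11 members and fell in 1, 8 and 1 after adjustment, with 9 members also higher in Col-0_2 and medians of 0.57 between wild-type sets and 0.62 after adjustment. ADH1, alcohol dehydrogenase, had 1786, 1647 and 1646 normalised reads in wrky-qm and 11292, 11718 and 11649.9 in wrky-qm_15_hz. Its wild-type means were 6116 and 13401, so wrky-qm was below both and wrky-qm_15_hz between them. LBD41, a transcription factor of the core response, rose from 426 ± 29.2 to 3023 ± 77, above its wild-type means of 1316 and 1540.4, and SUS4, a sucrose synthase, fell from 636 to 194 with wild type at 4013 and 6825.

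**Figure D4:**
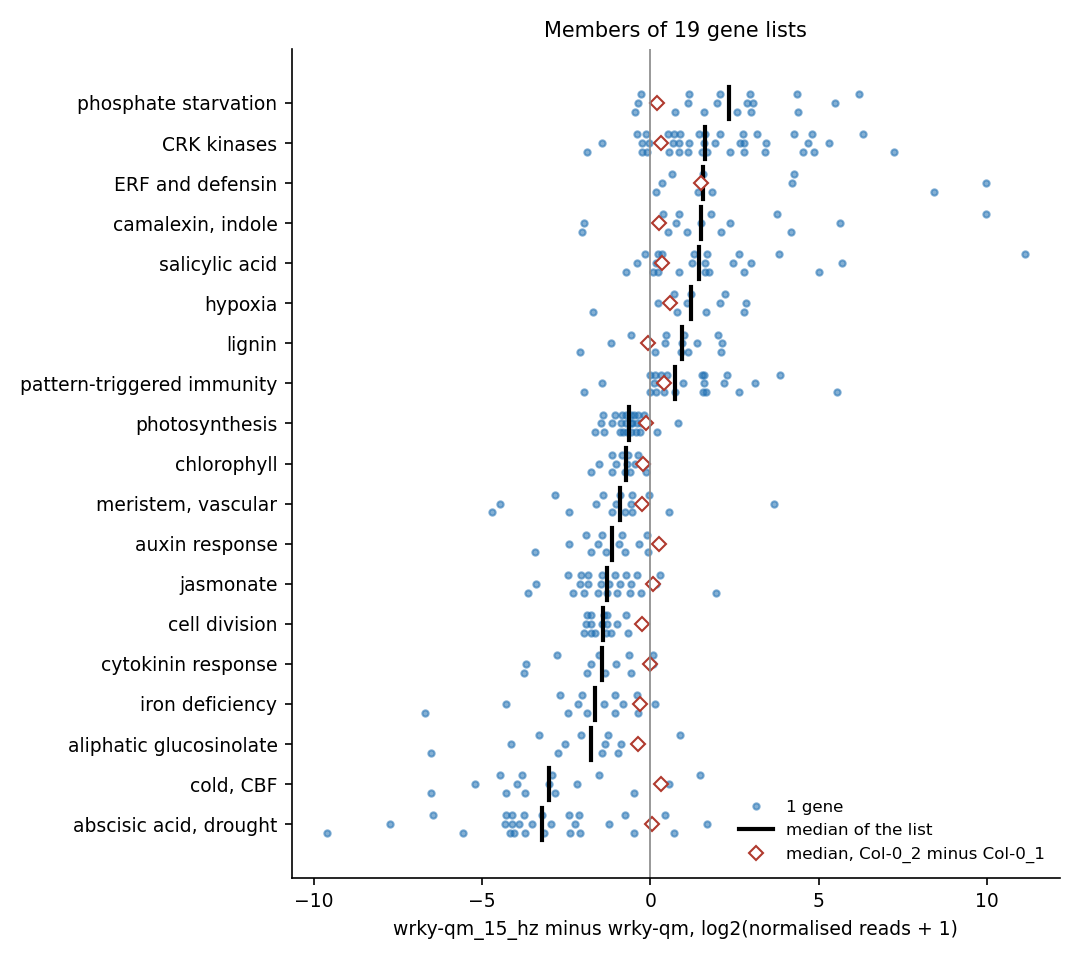
Log2 difference between wrky-qm_15_hz and wrky-qm for each tested member (points) of 19 gene lists, with the list median (black bar) and the median of Col-0_2 minus Col-0_1 over the same members (open diamond). Among the lists drawn, the lowest median, -3.23, belongs to abscisic acid and drought and the highest, 2.33, to phosphate starvation (the seed list, not drawn, has 2.40), and the diamond lies close to the bar in the ERF and defensin list, whose median is 1.55.

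In the photosynthesis list 23 of 26 members fell and 2 rose, 21 and 2 after adjustment, with a median of -0.63 beside -0.14 between wild-type sets. LHCB2.1, an antenna protein of photosystem II, had 164352, 159876 and 167378 normalised reads in wrky-qm and 50522, 54169 and 53530.3 in wrky-qm_15_hz. Wild type was at 148670.5 and 130769, and the fall was 1.64 ± 0.046 on the log2 scale (adjusted p = 5.63e-18). The rises were RBCS1B and RBCS2B, small subunits of Rubisco, and RBCS1A, at 345616 and 305149, did not pass. The chlorophyll list had 13 falls and no rise among 14 members, and 10 falls held after adjustment, with medians of -0.72 between mutants and -0.22 between wild-type sets. CAO, which makes chlorophyll b, fell from 11845 to 4172. The summed photosynthesis list was 4488751 to 4556863 per wrky-qm library and 2708543 to 2837983 per wrky-qm_15_hz library, and fewer cells of a type and less RNA per cell cannot be told apart in whole seedlings.

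Cell-division genes fell in 15 of 16 members, with no rise, and all 15 held after adjustment, with medians of -1.41 and -0.24. CYCB1;2, a mitotic cyclin, had 1128, 1197 and 1118 normalised reads in wrky-qm and 349, 329 and 327 in wrky-qm_15_hz, with wild type at 1147 ± 89.7 and 995 ± 27.9. KNOLLE, the syntaxin of the cell plate, fell from 1195 ± 16.5 to 353 ± 14, so for both genes wrky-qm was near wild type and wrky-qm_15_hz was not. DNA-replication genes gave 9 falls and 1 rise among 14 members and a median of -0.41 beside -0.25 between wild-type sets, and 3 falls and the rise of TSO2 held after adjustment, against 25.2% and 21.6% of all genes, with a set-adjusted median of -0.07. TSO2 lost its call under quantile normalisation (adjusted p = 0.13).

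Meristem and vascular genes fell in 13 of 17 members and rose in 2, 10 and 2 after adjustment, with medians of -0.91 between mutants and -0.26 between wild-type sets. TMO7, a small transcription factor of the embryonic root, had 139, 115 and 94.3 normalised reads in wrky-qm and 6.97, 4.46 and 2.34 in wrky-qm_15_hz, below wild-type means of 320.4 and 204. CUC1, an organ-boundary factor, rose instead, from 12.9, 21.4 and 15.4 to 205, 208 and 245, with wild type at 24.2 and 26.1. The other rise was SCR, from 1324 to 1940.2. PLT2, a factor of the root stem-cell niche, had 25.3 ± 4.8 in wrky-qm and was listed at 0 in all wrky-qm_15_hz libraries. Auxin-response genes fell in 10 of 14 members and cytokinin-response genes in 8 of 12, with no rise in either list, and 9 and 8 falls held after adjustment. The auxin medians were -1.13 and 0.25, and the cytokinin medians -1.44 and 0.00. ARR7, a type-A cytokinin response regulator, had 2197, 2234 and 2197 in wrky-qm and 339.8, 271 and 374 in wrky-qm_15_hz, with wild type at 409 and 423. IAA14, an auxin repressor, fell from 1914 to 362. Of the endodermis and root-hair genes 10 of 16 fell and 1 rose, 7 and 1 after adjustment, with medians of -1.03 and -0.04. CASP1, which builds the Casparian strip, fell from 1141 ± 17.5 to 331 ± 15.1 with wild type at 1266 and 1332, and the suberin list gave 9 falls of 12 and no rise, 6 after adjustment, with medians of -0.56 and -0.18. The root-hair expansin EXPA18 was at 181 and 177 in the mutants and did not pass.

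Smaller lists are given by their counts, to be read against 30.5% rises and 36.1% falls among all genes, and 21.6% and 25.2% after adjustment. Medians between mutants are followed by those between wild-type sets. Heat-shock genes rose in 8 of 15 members and fell in 2, and 6 rises and 1 fall held after adjustment (medians 0.83 and -0.00), with HSP90.1 from 459.7 to 1524 and DREB2A, a drought and heat factor, falling from 2046 to 334. In the unfolded-protein list 10 of 14 rose and 4 fell, 9 and 3 after adjustment (medians 0.39 and -0.10), with the chaperone BIP1 from 10871 to 19067 and its activator BZIP60 falling from 3853 to 2491. Among mitochondrial and oxidative-stress genes 9 of 16 rose and 5 fell, 7 and 1 after adjustment (medians 0.22 and 0.06). CAT3, a catalase, went from 151553 ± 1012 to 548767 ± 12467 beside 197504 and 300924 in wild type. Ribosome genes rose in 8 of 11 members with no fall (medians 0.26 and -0.05), though NUC1, a nucleolin, changed direction to -0.04 under quantile normalisation, where 5 members rose and 1 fell. The clock list had 10 falls and 4 rises among 16 members, 8 and 2 after adjustment (medians -0.66 and 0.04). PRR9, a morning repressor of the clock, fell from 1696 ± 116 to 52.6 ± 23.8, while CCA1 went from 1375 to 226 beside wild-type means of 1620.2 and 403. Flavonoid genes fell in 9 of 14 and rose in 2, 6 and 2 after adjustment (medians -1.50 and -0.83). In that list 9 members were also lower in Col-0_2, and the set-adjusted median was -0.22. In the touch list 2 of 6 rose and 2 fell, shares near those of all genes, no rise held after adjustment, and the medians were -0.17 and 1.75. The gibberellin list gave 3 rises and 8 falls among 12, 2 and 6 after adjustment (medians -0.94 and 0.05), among them a rise of GASA1, a gibberellin-regulated peptide, from 1869.9 ± 92.8 to 24314 ± 1579. Wax genes gave 3 rises and 8 falls of 12, 2 and 8 after adjustment (medians -1.08 and 0.47), with MYB96, an activator of wax synthesis under drought, falling from 5484 ± 82.7 to 1037 ± 22.9. Root triterpene genes fell in 5 of 6 with no rise, and all 5 held (medians -0.88 and 0.21). Genes carrying a GSTU name, tau-class glutathione transferases but for AT5G41210, whose reference symbol is GSTT1, gave 11 rises and 15 falls among 28, 10 and 11 after adjustment (medians -0.26 and -0.07). Heat-shock factors gave 7 rises and 6 falls among 19, 3 and 4 after adjustment (medians 0.01 and 0.05), shares near or below those of all genes. In the ferritin and iron-storage list 1 of 8 rose and 4 fell, and 3 falls held (medians -0.59 and 0.26).

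Seed storage and embryo genes, included as markers of seed and embryo, were present in both mutants. Of 19 members 15 rose and 2 fell, and 9 rises and 1 fall held after adjustment, with medians of 2.40 between mutants and 0.24 between wild-type sets. With the wild-type sets assigned the other way round, an alternative added after seeing the data, 14 rises and 2 falls of the seed list held. That assignment pairs each mutant with the wild-type set whose zeros are stored differently, and the labels state neither pairing. The summed level of the list was 1671 to 1698 normalised reads per library in Col-0_1, 1967 to 2162 in Col-0_2, 11537 to 11838 in wrky-qm and 42244 to 45453 in wrky-qm_15_hz. In Col-0_1 most of this sum came from members other than CRA1, CRC, CRU2, SESA3 and SESA4, whose means were 18, 0, 0, 0 and 2.17. The cruciferins CRA1 and CRC were high in both mutants, CRA1 with 4659.6, 4876 and 4813 in wrky-qm and 9168, 10029 and 10566 in wrky-qm_15_hz. The difference between wild-type sets was larger for these 2 genes, 18 against 358 for CRA1 and 0 against 44.5 for CRC, so their set-adjusted differences were -3.22 and -4.11 and neither rise held under the assumed pairing of sets and mutants. The albumins behaved otherwise. SESA3 had 10, 31.5 and 15.4 in wrky-qm and 4692, 4669.8 and 4541 in wrky-qm_15_hz, and was listed at 0 in both wild-type sets. SESA4 was listed at 0 in every wrky-qm library and had 1497, 1369 and 1359 in wrky-qm_15_hz. The cruciferin CRU2 rose from 16.9 ± 2.58 to 3844 ± 193. EM1 and EM6, late embryogenesis genes that answer to abscisic acid, fell, from 54.4 to 4.52 and from 47 to 16.2, and that of EM6 did not hold after adjustment. The embryo regulator LEC1 was at 0 and 2.22 and LEC2 at 1.27 and 0, and neither passed. Among the defining markers, SESA2 and SESA3 had a listed 0 in every wild-type library, and CRC and CRU2 in every Col-0_1 library. The part of seed tissue in other results was not tested.

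**Figure D5:**
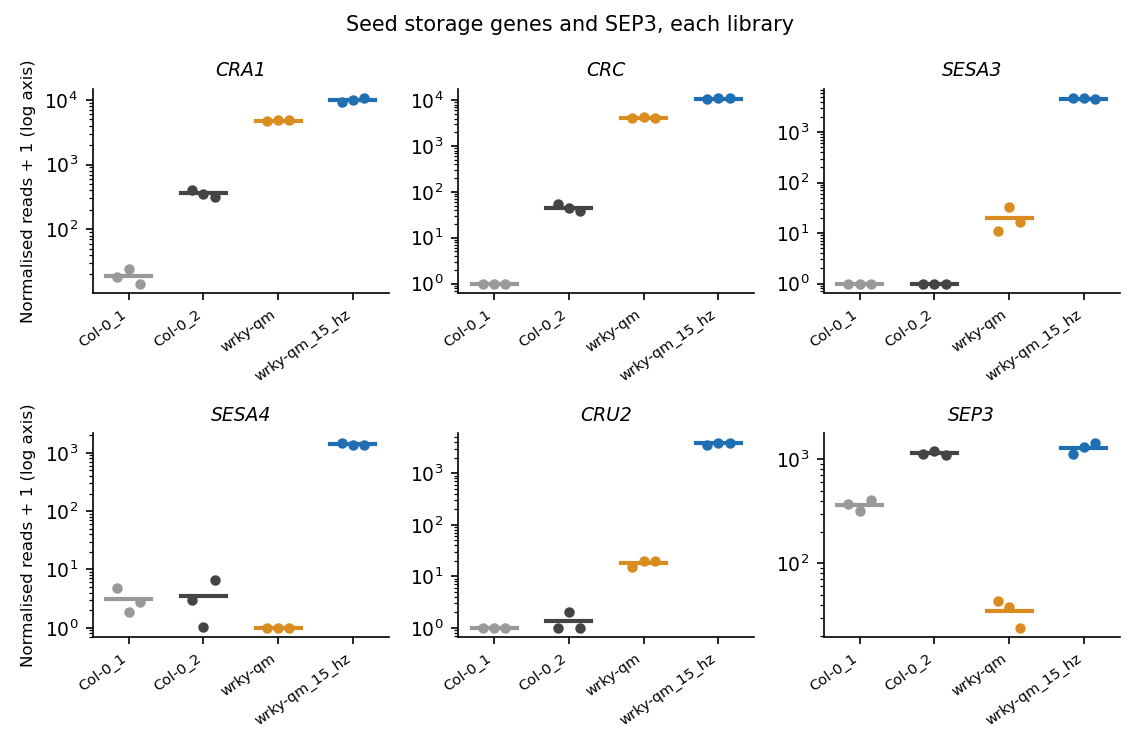
Normalised reads plus 1 (log axes) of 5 seed storage genes and the floral gene SEP3 in each library of Col-0_1, Col-0_2, wrky-qm and wrky-qm_15_hz, with group means as bars. CRA1 and CRC are high in both mutants, SESA3, SESA4 and CRU2 mainly in wrky-qm_15_hz, and SEP3 is lowest in wrky-qm.

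Floral and pollen markers, included as markers of reproductive tissue, rose in 4 of 10 members tested and fell in 1, with 3 rises and no fall after adjustment, against 30.5% and 36.1%, and 21.6% and 25.2%, of all genes. The medians were 0.39 between mutants and 0.48 between wild-type sets. Their sum was 122 to 167 per wrky-qm library and 1499 to 1819 per wrky-qm_15_hz library, and 379.7 to 467 in Col-0_1 and 1169.9 to 1363 in Col-0_2. SEP3, a floral organ factor, had 42.2, 36.7 and 23 in wrky-qm and 1111, 1319 and 1448 in wrky-qm_15_hz. At 362 and 1137 in wild type, wrky-qm_15_hz was near Col-0_2 and wrky-qm below both sets. SEP3 alone made up most of the sum in wrky-qm_15_hz and in both wild-type sets, and the pollen marker LAT52 was not matched. AP3, another organ factor, rose from 4.21 ± 2.02 to 207 ± 14.6. Their part in other results was not tested.

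Among genes called in both comparisons with at least a 2-fold difference, many lay on opposite sides of wild type in the 2 mutants. Picking genes by a large difference between the mutants favours such positions, and the share over all genes was not computed. Of the 3234 genes that fell by at least 2-fold and held after adjustment, 1344 (41.6%) had a wrky-qm mean above and a wrky-qm_15_hz mean below both wild-type means. Another 996 (30.8%) were below wild type in both mutants and 184 (5.69%) above it in both. Of the 2060 that rose, 862 (41.8%) went from below to above wild type, 699 (33.9%) were above in both and 21 (1.02%) below in both. A narrower choice asked for at least 2-fold on each side, a call that held after adjustment and no overlap between the mutants' libraries. It left 137 genes that were high in wrky-qm and low in wrky-qm_15_hz and 81 with the reverse. This is a description only, for which the mutants share the wild-type libraries. The examples were chosen after their values were seen. The first kind held HSFA6A, HAI2, RD29B, PUB19 and CYP82C4. The second kind held PR1, SAG13 and SPX3, with CRK7, CRK6, the calmodulin-like gene CML41 (5.2 to 341) and AIG1, a gene induced by bacterial avirulence (6.46 to 397). LURP1, a defence gene, went from 102 to 3334 and the phosphatase PEPC1 from 51.3 to 1446.

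A further group of large differences lay outside the lists. ADPG1, a polygalacturonase of cell separation, was listed at 0 in wrky-qm and both wild-type sets and had 245, 216 and 223 normalised reads in wrky-qm_15_hz. MEE26 was likewise listed at 0 in those groups and had 194, 220.5 and 180.0. ELI3-2, an elicitor-activated alcohol dehydrogenase, went from 2.31 ± 2.57 to 828 ± 36.5, and DXPS1, a relative of the first enzyme of plastid isoprenoid synthesis, from 0.636 ± 1.1 to 724 ± 52.1. Among the falls, BBX30 and BBX31, small B-box proteins of light signalling, went from 162 ± 23.4 to a listed 0 and from 213 ± 35 to 0.736 ± 1.23. EXPB2, a beta-expansin, went from 115 ± 7.6 to a listed 0.

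In 150 genes (0.618%) the set-adjusted call opposed the direct one. QQS, an orphan gene that affects starch, rose from 242 ± 23.9 to 1425 ± 47.5, but its wild-type means were 101 and 847, and the set-adjusted difference was -0.51 ± 0.21. TIP3;1, a seed aquaporin, rose from 152 to 540.4 beside 0.631 and 26.5 in wild type, and AT1G35210 from 43.5 to 193 beside 22 and 197. In the falls, AT5G53486 went from 918 to 395 beside 239.7 and 64.7, and AT3G44970 from 1745 to 970.0 beside 678 and 304. AT1G09500 went from 209.6 to 113 beside 149.9 and 21.6, and passed neither under quantile normalisation (adjusted p = 0.0799) nor without wrky-qm_15_hz replicate 3 (adjusted p = 0.0717). The low genes AT4G04855 and AT3G05950 completed the named set, at 5.86 and 22.1 and at 6.51 and 0.766 in the mutants. For these genes the direction depends on whether the wild-type sets are taken as partners of the mutants.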

How the data were processed

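Whole seedlings were sequenced as 150-bp paired-end reads per the labels, and the submitters' processing notes name bcl2fastq, HISAT2, edgeR and the build TAIR10, without versions or roles. The unit of the deposited values is not given in the sources used here and was recorded as signal. From the values, the signal the authors deposited has the form of counts moved to a common library size with edgeR, never negative and not whole, so count tests were not run and the strand and the counting of overlapping genes are unknown. Entries below 1e-06 count as 0.

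A limma-trend model (limma 3.58.1, R 4.3.3) was fitted to log2(value + 1) of all 15 libraries in 5 groups, so low genes have understated differences. Contrasts, the minimum mean of 1 and the threshold of 0.05 are given with the results; a gene called in both comparisons carries the larger of its 2 p-values before adjustment. The model was also run on data simulated with independent noise and no difference between wild-type sets. Such data lack the set difference seen here, so that run does not test the calls given. The set adjustment assumes that wrky-qm belongs with Col-0_1 and wrky-qm_15_hz with Col-0_2, which the labels do not state. Same-numbered replicates were not treated as pairs.

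The members and the lists were chosen with earlier results of these data known: 38 lists with 562 entries written from memory, of which 550 matched RefSeq names of assembly TAIR10.1, and 4 families with 163 entries taken by symbol or synonym. All 32548 loci matched that table; it differs from the build of the values, so no coordinates or sequences were used, and a planned motif count in promoters was not run. Named genes are the mutated, WRKY74 and OBE genes, the 12 largest rises and 12 largest falls called in both comparisons with a symbol, no overlap and a mean of at least 50, up to 4 members of smallest p per list with at least 3 calls, and the 4 largest rises and falls opposed after adjustment. Other list members, above all those that go against a list's direction or complete a pathway, were named after their values were seen. Alternatives were other pseudocounts, filters, scalings, fits and leaving out each library.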

Additional observations from a re-analysis of the deposited data

How the results depend on the processing

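The counts of genes called higher and lower in each comparison stayed within 1.5 times their value under every alternative run. Quantile normalisation gave 7835 rises and 8090 falls directly, and 5661 and 5542 in both comparisons. Median-of-ratios size factors gave 7977 and 8090 directly, and 5725 and 5670 in both comparisons. Under either scaling falls exceeded rises by less in the direct comparison. Among genes called in both comparisons rises then exceeded falls, the reverse of the main fit. Leaving out 1 library at a time, obe1-2 libraries excepted, gave 7027 to 7417 rises and 8261 to 8718 falls in the direct comparison. In both comparisons it gave 4977 to 5111 rises and 5699 to 5915 falls. The replicate block gave 7363 rises and 8714 falls directly, and 5222 and 6052 in both comparisons; deviations of same-numbered libraries correlated at -0.00603, -0.0186 and -0.026, so the numbers were not taken as pairs. Assigning the wild-type sets the other way round, an alternative chosen after seeing the data, gave 6240 rises and 7200 falls in both comparisons, with 14 rises and 2 falls in the seed list. It pairs each mutant with the wild-type set whose zeros are stored differently. WRKY74, which did not pass in any setting, changed sign to 0.43 under quantile normalisation and 0.05 with median-of-ratios size factors, and ran from -0.21 to 0.32 when 1 library was left out (0.32 without wrky-qm replicate 3, 0.15 without wrky-qm_15_hz replicate 2). NUC1 changed sign to -0.04 under quantile normalisation, where TSO2 (0.08, adjusted p = 0.13) and AT1G09500 also missed the threshold; the cause was not tested. OBE1 passed with a pseudocount of 5 (adjusted p = 0.0286), under quantile normalisation (0.0128), in the fit to the 6 libraries of both mutants (1.48e-04) and in the fit to 12 libraries without obe1-2 (7.18e-05), at -0.32 to -0.45. Of 3780 list counts under the alternatives, 99 moved by more than 1.5 times. Count tests were not run because the table holds no counts. The precision of genes under a few reads is limited by depth, and no counting interval can be given.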
